A study of Columba livia with 12 samples.

Results

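The genes described here are 8 markers of macrophages and lymphocytes: CSF1R, IRF8, CD74, LAPTM5, RAC2, BLNK, CD247 and GZMA. They were chosen by symbol, through the gene identifiers of the mRNA table, and all 8 were found among its 12918 entries. The 8 genes and the gene lists used below were chosen with earlier results of these data known. The samples were breast muscle of White-King birds, a domestic pigeon strain (Columba livia) kept for meat. The birds were 1 day (1D), 14 days (14D) or 28 days old (28D), or 2 years old (2Y), with 3 libraries each and no treatment or genetic change named. Values of the 1D, 14D and 28D libraries are given, and the 2Y birds were not analysed here. The labels do not say whether the 3 libraries of an age came from separate birds, so p-values measure the spread between libraries, which may be technical.

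Skeletal muscle holds resident macrophages between its fibres, together with smaller numbers of lymphocytes, and these cells clear debris and take part in growth and repair. Macrophages depend on the receptor CSF1R and its ligands CSF1 and IL34, while the transcription factors SPI1 and IRF8 set their lineage. Antigen-presenting cells use CD74 to load MHC class II molecules, and B cells, T cells and natural killer (NK) cells carry their own receptor and effector proteins. These roles were worked out mostly in human and mouse.

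Abundance was given as TPM, a share of all transcripts scaled for length, so levels can be compared between genes. These values hold no read numbers, so the depth of the libraries is unknown and low values carry an unknown counting error. Differences between ages were tested on log2(TPM + 1) with limma across all 11951 genes that reached 1 TPM in at least 3 of the 9 libraries. A gene was called at a Benjamini-Hochberg adjusted p below 0.05. Changes are on this log2 scale, which understates the change of low genes, so the ratio of mean TPM is given beside those of the 8 genes and of other low genes. All 8 genes passed the filter on low values. CD247 passed through its later ages alone, since no 1D library reached 1 TPM, and GZMA reached 1 TPM in 1 library of 1D. Such a gene had to be higher later to be tested, so its call against 1D is given as a description. With no filter on low values both genes were called all the same. The reduced list counts below set aside only genes with no library at 1 TPM at 1D, or none later. Genes such as VSIG4, CX3CL1 and IL15RA, with 1 library of 1D at 1 TPM, also passed through their later ages and stay in those counts. The reduced counts are therefore a description as well.

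Some libraries stood apart from others of their age. At 14D, replicate 2 held the highest value of 60.1% of tested genes with a symbol, and of 6 of the 8 genes. At 1D, replicate 2 held the highest value of 20 of 22 interferon-response genes, against 36.3% of tested genes with a symbol, and of CD74, IRF8, CSF1R and BLNK. Their part in the results was not tested, but all 8 genes were called higher in both later ages than at 1D without either library. Skeletal muscle identity genes summed to 35196 to 40725 TPM at 1D, 45212 to 52248 TPM at 14D and 39625 to 40199 TPM at 28D. The 14D sums thus lay above those of both other ages. Marker sums of other cell types are given beside the results.

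All 8 genes were higher at 14D than at 1D and stayed above the 1D level at 28D, with no overlap between the libraries of 1D and those of either later age. Of all tested genes, 17.1% lay wholly above 1D at 14D and 44.9% wholly below, and 19% and 49% did so at 28D. At 14D against 1D, all 8 were called higher and none lower, where 13.6% of tested genes were called higher and 39.2% lower. The count without CD247 and GZMA was 6 of 6. At 28D against 1D, the count was again 8 higher and 0 lower, where 16.4% of tested genes were called higher and 43.9% lower. Between 14D and 28D none of the 8 was called, where 0.544% of tested genes were called higher and 0.87% lower. The 2 contrasts with 1D share the 1D libraries. The 8 genes were chosen with earlier results of these data known. Their counts beside those of all tested genes are therefore a description and not support for a rise. After rescaling each library to the same median gene, the 8 genes kept their calls, while the background was nearly even, with 2925 genes higher and 3101 lower at 14D and 3405 higher and 3537 lower at 28D. In whole muscle, a change in the number of cells of a type and a change in RNA per cell cannot be told apart.

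**Figure D1:**
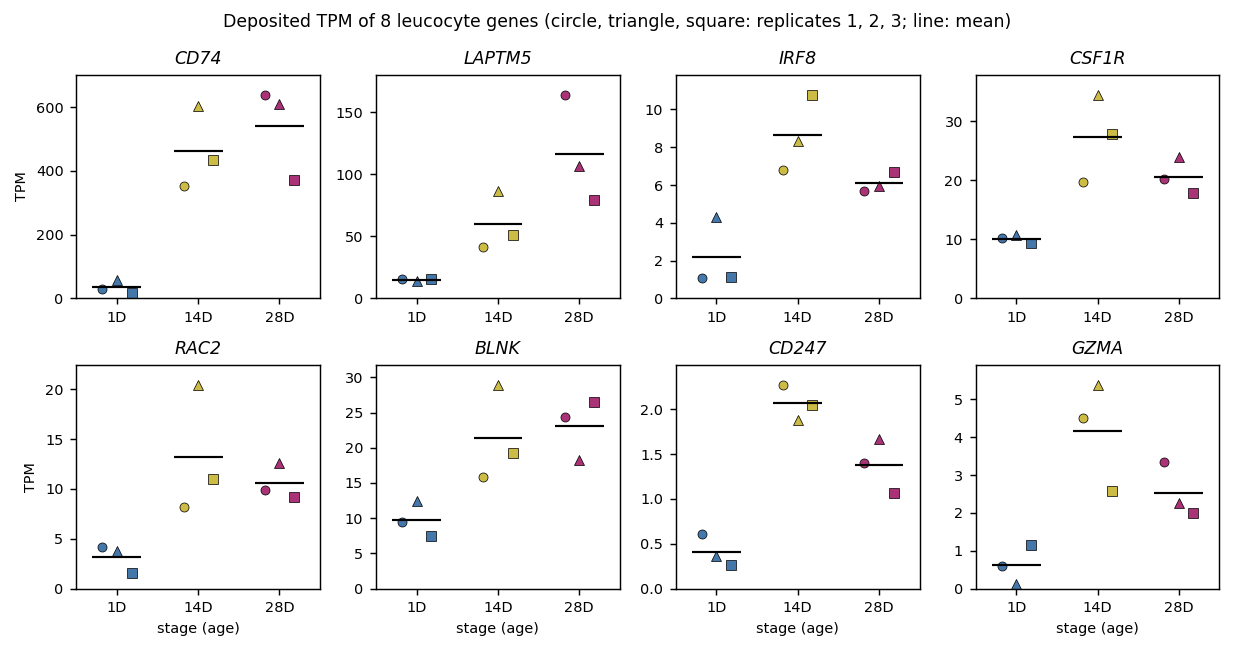
TPM of each of the 8 genes (vertical axis, TPM, from 0) by age (horizontal axis), with 1 point per library (circle, triangle and square for replicates 1, 2 and 3) and a line at the mean. The 1D points of every gene lie below all points of 14D and 28D, and CD74 reaches 638 TPM at 28D.

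The order of the 8 genes by level hardly changed with age. At 1D the mean level ran from CD74 (34.4 TPM) through LAPTM5, CSF1R, BLNK, RAC2, IRF8 and GZMA to CD247 (0.409 TPM). The same order held at 14D, from CD74 at 463 TPM to CD247 at 2.06 TPM. At 28D only CSF1R (20.6 TPM) and BLNK (23.0 TPM) had changed places, and their 28D libraries overlapped. CD74 made up 74.3% of the summed level of the 8 genes over the 9 libraries, so the sum mostly follows that gene.

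Of the macrophage genes, CSF1R (gene ID 102090039), the receptor for CSF1 and IL34, was at 10.2, 10.7 and 9.34 TPM in the 1D libraries. It was at 19.8, 34.5 and 27.9 TPM at 14D and at 20.2, 23.9 and 17.8 TPM at 28D. The 1D libraries lay close together and below all others, while those of 14D and 28D overlapped. CSF1R rose by 1.32 on the log2 scale at 14D (SE 0.202, limma adjusted p = 0.000376), a 2.72-fold ratio of means. At 28D it was 0.96 above 1D (limma adjusted p = 0.0021), a 2.05-fold ratio of means.

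IRF8 (gene ID 102098593), a transcription factor of monocytes, dendritic cells and B cells, was at 1.08, 4.33 and 1.14 TPM at 1D. It stood at 6.81, 8.35 and 10.8 TPM at 14D and at 5.68, 5.93 and 6.70 TPM at 28D. Replicate 2 of 1D was well above the other 1D libraries, and every 28D value lay below every 14D value. IRF8 was 1.73 higher at 14D than at 1D (SE 0.329, limma adjusted p = 0.00147) and 1.30 higher at 28D (limma adjusted p = 0.00591), with ratios of means of 3.97 and 2.80. Without replicate 2 of 1D the first change was 2.17, and the ratios of means were 7.80 and 5.51.

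CD74 (gene ID 102095567), the MHC class II invariant chain that chaperones class II molecules to the endosome, showed the largest change of the 8 in both contrasts with 1D. Its 1D libraries were at 28.3, 58.6 and 16.4 TPM. It reached 352, 602 and 435 TPM at 14D and 638, 610 and 372 TPM at 28D. The lowest later library was far above the highest 1D library, and the later ages overlapped. CD74 rose by 3.86 at 14D (SE 0.398, limma adjusted p = 3.52e-05), a 13.4-fold ratio of means, and 20 of the 11951 tested genes rose more. At 28D it was 4.08 above 1D (limma adjusted p = 1.53e-05), a 15.7-fold ratio of means. Without replicate 2 of 1D the ratios of means were 20.7 at 14D and 24.2 at 28D.

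LAPTM5 (gene ID 102095840), a lysosomal membrane protein of blood-forming lineages, was at 15.5, 13.8 and 15.2 TPM at 1D. It was at 41.7, 86.5 and 51.1 TPM at 14D and at 164, 107 and 79.0 TPM at 28D. The 1D libraries were nearly equal, and the 28D libraries were higher than those of 14D except that the lowest of them lay below replicate 2 of 14D. LAPTM5 rose by 1.87 at 14D (SE 0.294, limma adjusted p = 0.000452), a 4.02-fold ratio of means, and was 2.83 above 1D at 28D (limma adjusted p = 2.24e-05), a 7.84-fold ratio of means. It was the gene of the 8 with the lowest p between 14D and 28D, with a difference of 0.96 (95% interval 0.30 to 1.61). That difference was not called (limma adjusted p = 0.144, range over the alternatives 0.0556 to 0.35).

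RAC2 (gene ID 102092145), a small GTPase of blood cells that serves the phagocyte oxidase, was at 4.12, 3.78 and 1.55 TPM at 1D. Its values were 8.15, 20.4 and 11.0 TPM at 14D and 9.88, 12.6 and 9.19 TPM at 28D. Replicate 2 of 14D was the highest library, and the 28D values lay within the range of 14D. RAC2 was 1.74 higher at 14D than at 1D (SE 0.337, limma adjusted p = 0.00163) and 1.53 higher at 28D (limma adjusted p = 0.00272), with ratios of means of 4.18 and 3.36.

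Of the lymphocyte genes, BLNK (gene ID 102094051), an adaptor that links the B cell receptor to its downstream enzymes, had the smallest log2 change at 14D. It was at 9.47, 12.5 and 7.44 TPM at 1D, at 15.8, 28.9 and 19.3 TPM at 14D and at 24.4, 18.2 and 26.5 TPM at 28D. The highest 1D library came near the lowest 14D library without overlap. BLNK was 1.03 higher at 14D (SE 0.25, limma adjusted p = 0.0058) and 1.16 higher at 28D (limma adjusted p = 0.00236) than at 1D, with ratios of means of 2.18 and 2.35. Without replicate 2 of 14D the first was 0.80 (limma adjusted p = 0.019).

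CD247 (gene ID 102089734), the zeta chain of the T cell receptor complex, was at 0.61, 0.36 and 0.26 TPM at 1D. It stood at 2.27, 1.87 and 2.05 TPM at 14D and at 1.41, 1.66 and 1.07 TPM at 28D. All 28D libraries lay between those of 1D and those of 14D. The ratio of means at 14D against 1D was 5.04, but at these low levels the log2 change was 1.13 (SE 0.174, limma adjusted p = 0.000413). At 28D it was 0.76 above 1D (limma adjusted p = 0.00353), a 3.37-fold ratio of means. As the filter admitted CD247 through 14D and 28D alone, both calls are a description.

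GZMA (gene ID 102093295), a serine protease of cytotoxic T cells and NK cells, was at 0.61, 0.12 and 1.14 TPM at 1D. It was at 4.50, 5.38 and 2.58 TPM at 14D and at 3.35, 2.25 and 1.99 TPM at 28D. The 1D libraries differed widely from each other and lay below all others. GZMA was 1.67 higher at 14D (SE 0.288, limma adjusted p = 0.000789), a 6.66-fold ratio of means, and 1.15 higher at 28D (limma adjusted p = 0.00569), a 4.05-fold ratio of means. Without replicate 3 of 1D these ratios were 11.4 and 6.96.

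**Figure D2:**
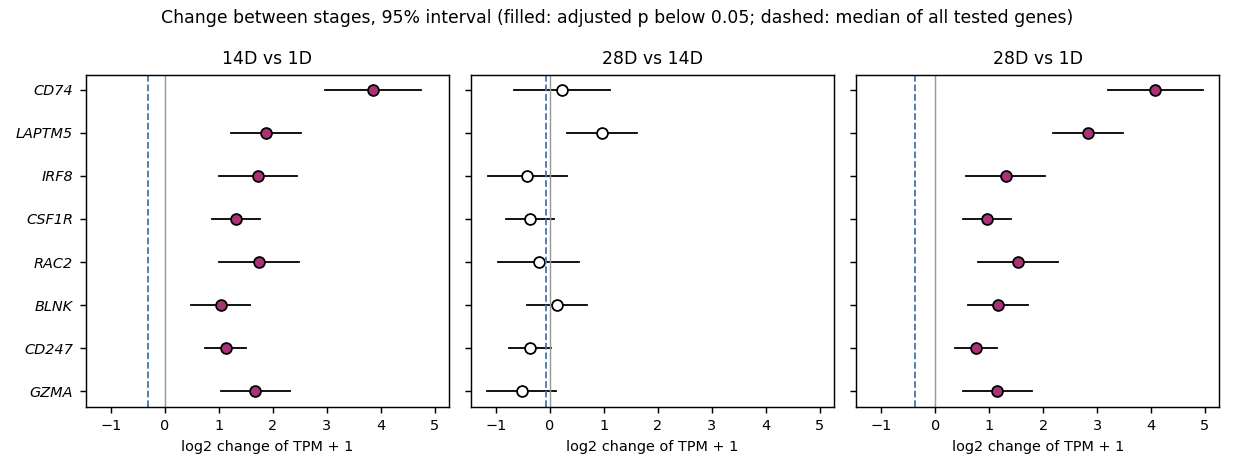
Change of each of the 8 genes (horizontal axis, log2 of TPM + 1, with 95% intervals from limma) in the 3 contrasts between ages, 3 libraries per age. Every interval of both contrasts with 1D lies above 0, and between 14D and 28D the intervals include 0 except for LAPTM5 (0.30 to 1.61).

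From 14D to 28D the 8 genes did not move one way. CD74, LAPTM5 and BLNK had higher means at 28D, and IRF8, CSF1R, RAC2, CD247 and GZMA had lower ones. None of these differences was called by limma, and 1 gene, LAPTM5, had an unadjusted p under 0.05. The values of IRF8 and CD247 at 28D lay wholly below those of 14D, as did those of 13% of tested genes, and none of the 8 lay wholly above, as did 6.75% of tested genes. The log2 difference was -0.42 for IRF8 (limma adjusted p = 0.583) and -0.37 for CD247 (limma adjusted p = 0.336). The difference of RAC2 was -0.21 and turned to 0.13 without replicate 2 of 14D, and that of BLNK was 0.13 and turned to -0.053 without replicate 1 of 14D.

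The table as a whole shifted with age. All tested genes had a median log2 difference of -0.31 at 14D and -0.38 at 28D from 1D, and each of the 8 genes rose against that shift. The mRNA table summed to 835976 to 844829 TPM at 1D and to 737968 to 790319 TPM later. With each library rescaled to the same median gene, the changes of the 8 genes were larger, with CD74 at 4.21 and LAPTM5 at 2.21 for 14D against 1D.

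Ratios within a library compare the 8 genes with each other without regard to the scale of the library. CSF1R was taken as the denominator after the values were seen. The share of all tested genes whose ratio to CSF1R separates the ages was not computed, so these ratios are a description. The number of CD74 transcripts per CSF1R transcript was 2.78, 5.47 and 1.75 at 1D, 17.8, 17.5 and 15.6 at 14D, and 31.6, 25.5 and 20.9 at 28D. LAPTM5 per CSF1R was 1.52, 1.29 and 1.63 at 1D, 2.11, 2.51 and 1.83 at 14D, and 8.11, 4.47 and 4.43 at 28D. Both ratios rose at each step with no overlap between any ages. Each exact two-sided permutation p was 0.1, the smallest that 3 libraries against 3 can give. The ratios of IRF8, BLNK and GZMA to CSF1R overlapped between all ages, and those of RAC2 and CD247 overlapped in every contrast except 28D against 1D.

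**Figure D3:**
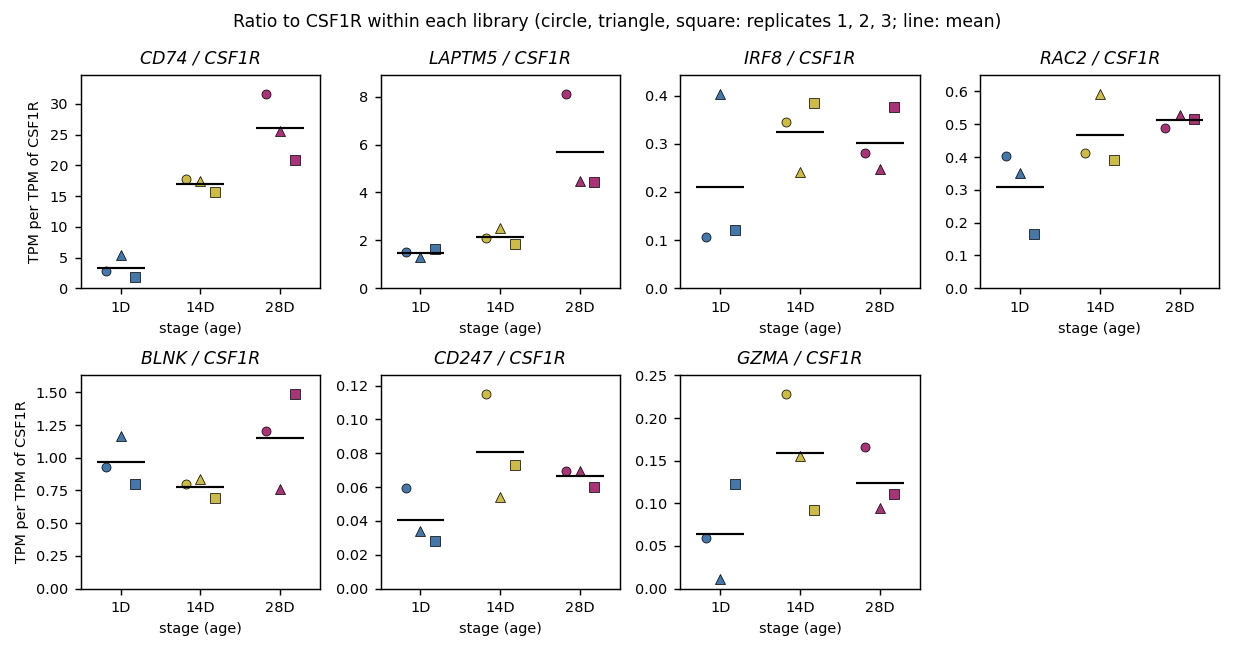
TPM of each gene per TPM of CSF1R within a library (vertical axes, ratio, from 0) by age, with 1 point per library (circle, triangle and square for replicates 1, 2 and 3) and a line at the mean. CD74 per CSF1R climbs from at most 5.47 at 1D to at least 20.9 at 28D, while the ratios of IRF8, BLNK and GZMA overlap between ages.

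A second denominator was PTPRC (CD45), the phosphatase carried by nearly all leucocytes, also taken after the values were seen. PTPRC was at 4.34, 4.35 and 3.57 TPM at 1D, at 6.76, 9.83 and 6.37 TPM at 14D and at 6.37, 4.99 and 5.09 TPM at 28D. It was called higher at 14D (0.75, limma adjusted p = 0.00693) but not at 28D against 1D (0.35, limma adjusted p = 0.133), where it was called after rescaling to the median gene. LAPTM5 per PTPRC was 3.58, 3.17 and 4.27 at 1D, 6.17, 8.80 and 8.02 at 14D, and 25.7, 21.4 and 15.5 at 28D. CD74 per PTPRC was also separate between all 3 ages, from 4.59 to 13.5 at 1D up to 73.1 to 122 at 28D. CSF1R, RAC2, CD247 and GZMA per PTPRC were above 1D with no overlap at both 14D and 28D, and overlapped between the later ages. The ratio of IRF8 to PTPRC overlapped between all ages. BLNK per PTPRC was above 1D and 14D at 28D alone, at 3.65 to 5.20 against at most 3.03. These ratios to PTPRC were not tested. The share of all tested genes whose ratio to PTPRC separates the ages was not computed, so they are a description.

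Over the 9 libraries the 28 pairs of the 8 genes had Pearson correlations of log2(TPM + 1) between 0.643 and 0.953, with a median of 0.849. All 8 genes were lowest at 1D, which by itself gives positive correlations over libraries that share their ages. After the mean of each age was taken away, the correlations ran from -0.761 (IRF8 with GZMA) to 0.822 (CSF1R with RAC2). Their median was then 0.28, and 19 of 28 were positive. The genes most like each one, over the same 9 libraries and among 8114 genes of at least 5 TPM, included 3 of the listed genes, B2M, PTPN6 and IFNAR1, among 24. The share of listed genes among the 8114 was not computed, so this count is a description. CD74 was closest to ABCC5 (r = 0.994), FAM193B (0.993) and B2M (0.988), the last being the light chain of MHC class I. LAPTM5 was closest to PODXL (0.991), PLAT (0.988) and ABCC8 (0.987), of which PODXL and PLAT are expressed by endothelium. CSF1R was closest to ILDR2 (0.98), the leucocyte phosphatase PTPN6 (0.975) and ABI3BP (0.964). BLNK was closest to MYCT1 (0.99), a gene of endothelial cells, TSHZ2 (0.988) and the interferon receptor subunit IFNAR1 (0.988). IRF8 was closest to RYR3 (0.961), RAC2 to HOXC6 (0.978), CD247 to GGA1 (0.976) and GZMA to MINDY1 (0.936). With the mean of each age taken away, the correlations of the 24 genes ran from 0.591 (CD247 with SIX2) to 0.982 (BLNK with IFNAR1). The 24 genes were picked from 8114 for their likeness in the same libraries, which share their ages. These correlations are therefore a description of the libraries, and the cell types behind them were not tested.

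Other immune genes did not all move with the 8. Of 153 tested genes on 9 immune lists other than the 8, 47 were called higher and 20 called lower in 14D libraries than in those of 1D, with a median change of 0.28. Of the 153, the number called lower was 13 without replicate 1 of 1D and 11 without replicate 2. With 1 library left out at a time, the number called higher ran from 34 to 51. After rescaling to the median gene, 67 were called higher and 11 lower, beside 2925 and 3101 of all 11951 tested genes. Some of the called genes passed the filter through their high ages alone, as given for the lists below. At 28D against 1D, 44 were higher and 29 lower, with a median of 0.23, or 69 and 13 after rescaling. Among all tested genes, 16.4% were higher and 43.9% lower at 28D. Without replicate 1 or 2 of 1D, 17 of the 153 were lower at 28D, and the number higher ran from 32 to 47 with 1 library left out. None of the 153 was called between 14D and 28D by limma, where 21 had an unadjusted p under 0.05, and 1 was called higher without replicate 2 of 28D. The share of all tested genes with such an unadjusted p was not computed in any contrast.

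Of 22 tested macrophage and myeloid markers, 10 rose and 1 fell at 14D (median 0.50), CSF1R and IRF8 among those that rose. CD83 reached 1 TPM in no 1D library and HPGDS in no later one, so that each passed the filter through its high ages alone. Without them, 9 rose and 0 fell. STAB1, a scavenger receptor, rose by 1.62, the activation marker CD83 by 1.29 (an 8.40-fold ratio of means) and the complement component C1QA by 1.11. C1QA was no longer called without replicate 1 of 1D (limma adjusted p = 0.0503). HPGDS, the prostaglandin D synthase, fell by 1.11 (a 0.245-fold ratio of means). SPI1, the lineage factor, rose by 1.05 (limma adjusted p = 0.00428), from 3.85 to 6.13 TPM at 1D to 7.45 to 15.3 TPM at 14D. The scavenger receptor MARCO was not called (-0.42, or 0.051 without replicate 2 of 1D) and was at 3.89 TPM in replicate 2 of 1D against 0.63 and 1.05 TPM in the other 1D libraries. Without the 8 genes the list summed to 184 to 225 TPM at 1D, 206 to 282 TPM at 14D and 252 to 259 TPM at 28D, so that 28D lay above 1D and 14D overlapped with both. CD163, MRC1, C1QB and C1QC were not matched by symbol and were not analysed here.

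The ligands of CSF1R parted from each other. IL34 was at 7.49, 5.88 and 5.72 TPM at 1D, at 10.4, 15.5 and 16.1 TPM at 14D and at 30.0, 26.7 and 17.6 TPM at 28D. The 3 ages did not overlap, and IL34 was 1.01 higher at 14D (limma adjusted p = 0.00408) and 1.78 higher at 28D (limma adjusted p = 9.22e-05) than at 1D. CSF1 lay between 4.07 and 8.09 TPM at 1D and between 4.95 and 6.44 TPM later, and was not called in either contrast. MIF, a cytokine that binds CD74, fell by 1.05 at 14D (limma adjusted p = 0.00115), from 213 to 313 TPM down to 105 to 140 TPM. CD74 and this ligand therefore changed in opposite directions.

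Antigen presentation genes other than CD74 moved less. Of 11 tested, 4 rose, CD74 included, and 1 fell at 14D (median 0.41). B2M rose by 1.54, from 203 to 283 TPM at 1D to 598 to 747 TPM at 14D. IFI30, a lysosomal thiol reductase of antigen processing, rose by 1.40, and PDIA3, a chaperone of the class I loading complex, fell by 1.34. CIITA, the transcriptional activator of the class II genes, was at 0.048 to 0.29 TPM at 1D and at 0.91 to 1.88 TPM at 14D, a change of 0.99 and a 7.90-fold ratio of means (limma adjusted p = 0.00178). It reached 1 TPM in no 1D library, so the filter admitted it through the later ages alone, and 3 of the 4 genes of the list that rose are left without it. At 28D it was at 0.95 to 1.28 TPM.

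Pan-leucocyte genes were mixed. Of 33 tested, 12 rose and 4 fell at 14D (median 0.30), LAPTM5 and RAC2 among the risers. Of the 12, ITGB2 and SASH3 reached 1 TPM in no 1D library, which leaves 10. TRAF3IP3, an adaptor of lymphocytes, rose by 1.55, PTPN6 by 1.38 and the integrin chain ITGB2 by 1.13 (3.96-fold, with no 1D library at 1 TPM), while the GTPase activator ARHGAP15 fell by 1.73. LSP1, the most abundant of the list, was at 89.7 to 121 TPM at 1D and at 48.0 to 92.0 TPM at 14D, and fell by 0.75 (limma adjusted p = 0.0282). LSP1 was singled out after its values were seen. After rescaling to the median gene, 17 genes of the list rose and 1 fell. The summed level of the list without the 8 genes was 251 to 302 TPM at 1D, 198 to 315 TPM at 14D and 197 to 244 TPM at 28D. That sum overlapped between 1D and 14D, unlike each of the 8 genes, which were chosen with earlier results known. LSP1 made up 28.8% of the sum over the 9 libraries. ARHGDIB (51.4 to 58.0 TPM) and ITGA4 (33.4 to 41.1 TPM) were also abundant at 1D, so the sum mostly follows a few genes.

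Of 16 tested genes of T and NK cells, 7 rose and 2 fell at 14D (median 0.66), CD247 and GZMA among the risers, and after rescaling 11 rose and none fell. Of the 7, 5 (CD247, PRF1, GATA3, CD8A and LCK) reached 1 TPM in no 1D library. The filter admitted them through the later ages alone. The other 2, GZMA and STAT4, reached 1 TPM in only 1 library of 1D, so they too passed through the later ages. The calls of all 7 are therefore a description and not support for a rise of the list. PRF1, perforin, was at 0.10 to 0.45 TPM at 1D, at 2.48 to 5.77 TPM at 14D and at 0.67 to 2.79 TPM at 28D. It was 2.07 higher at 14D (limma adjusted p = 0.000557), a 19.5-fold ratio of means. At 28D it was 0.91 higher (limma adjusted p = 0.0372), a call lost without replicate 1 or 3 of 1D (0.102 in both cases) or replicate 1 of 28D (0.14). The 2 that fell, named after their values were seen, were TBX21 (-0.82, limma adjusted p = 0.022) and FYN (-0.55, limma adjusted p = 0.0318). TBX21 was at 3.92 to 8.64 TPM at 1D and at 2.15 to 3.96 TPM at 14D. GATA3, a transcription factor of T cells, rose by 1.42 (a 7.80-fold ratio of means). CD8A, the co-receptor of cytotoxic T cells, rose by 0.97 (9.10-fold) and LCK, the kinase that phosphorylates the zeta chain, by 0.95 (11.2-fold). LCK and CD8A were at most 0.26 TPM in every 1D library and between 0.54 and 1.53 TPM in every later one. Without CD247 and GZMA the list summed to 63.2 to 63.7 TPM at 1D. It summed to 61.2 to 94.5 TPM at 14D and 55.9 to 65.7 TPM at 28D, and the ages overlapped. FYN made up 30.7% of that sum over the 9 libraries, and PRKCQ was at 14.4 to 21.2 TPM at 1D. The sum therefore mostly follows a few abundant genes and says little of the others. CD3E, ZAP70 and CD4 were not matched by symbol and were not analysed here.

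Few genes of B cells were called. Of 15 tested, 3 rose and 1 fell at 14D (median -0.08), and BLNK was 1 of the 3. The other two were CIITA, which the list shares with antigen presentation, and SYK, the kinase upstream of BLNK. SYK was 0.44 higher (limma adjusted p = 0.0481), a 1.91-fold ratio of means, with adjusted p up to 0.179 over the alternatives. SYK and CIITA reached 1 TPM in no 1D library, which leaves BLNK alone among the risers that did. TNFRSF17, a receptor of plasma cells, fell by 1.03 (a 0.282-fold ratio of means) and was not called without replicate 2 of 1D (limma adjusted p = 0.0507). BTK and PLCG2, the enzymes that BLNK brings together, were not called at 14D (0.02 and -0.35). CD79B, a chain of the B cell receptor, was listed at 0 in 3 libraries and at up to 1.40 TPM in the others, and was not called. At 1D it was at most 0.70 TPM, where BLNK was at 7.44 to 12.5 TPM, and which cells carried BLNK was not tested. At 28D, 3 rose and 4 fell against 1D, or 4 and 1 after rescaling, with BCL6 at 70.6, 14.6 and 102 TPM at 28D against 7.47 to 9.87 TPM at 1D. CD79A and PAX5 were not matched by symbol and were not analysed here.

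**Figure D4:**
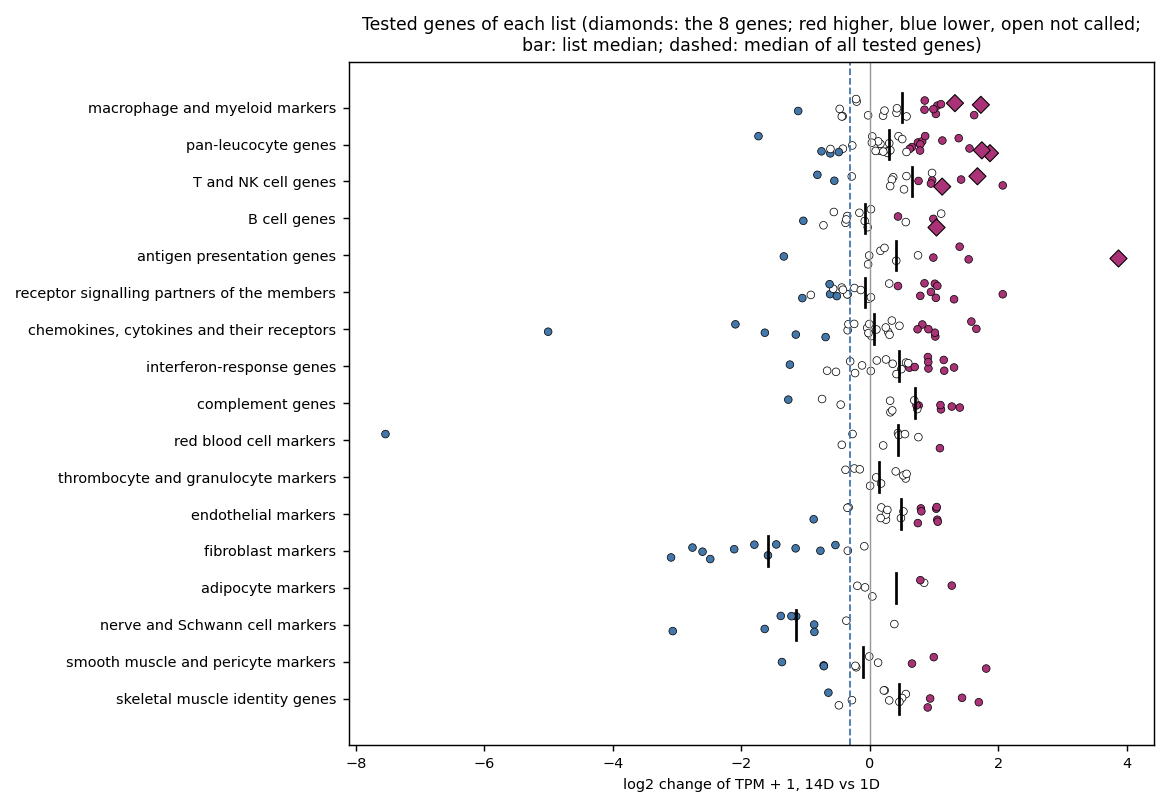
Change of every tested gene of each list from 1D to 14D (horizontal axis, log2 of TPM + 1), with 1 point per gene (diamonds for the 8 genes, red called higher, blue called lower, open not called), a bar at each list's median and a dashed line at the median of all tested genes (-0.31). The 8 diamonds all lie right of 0, while the other genes of the immune lists spread on both sides of 0.

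Signalling and effector lists gave the following counts. Of 26 tested chemokines, cytokines and their receptors, 7 rose and 5 fell at 14D (median 0.06), or 9 and 4 after rescaling. Of the 7, IL10 reached 1 TPM in no 1D library, which leaves 6. CXCL14, a chemokine that attracts monocytes, fell by 5.01, from 31.7 to 46.4 TPM to at most 0.36 TPM, and passed the filter through 1D alone. TGFB3 fell by 2.09 and IL1R1, the interleukin 1 receptor, by 1.63, while TNFSF10 (TRAIL) rose by 1.66. Of 24 tested receptor signalling partners of the 8 genes, 9 rose and 4 fell (median -0.08), or 9 and 1 after rescaling. Of the 9, PRF1, LCK and SYK reached 1 TPM in no 1D library, which leaves 6. PRF1, IRF1, SPI1 and MIF showed the largest changes of the list. Of 22 interferon-response genes, 8 rose and 1 fell (median 0.45). IRF1, an interferon-induced transcription factor, rose by 1.31 at 14D, and its mean at 28D was 4.26 times that of 1D. TLR3, a sensor of double-stranded RNA, rose by 1.16 and NMI by 1.15, while the feedback inhibitor SOCS1 fell by 1.24. Of 14 complement genes, 6 rose and 1 fell (median 0.71). The protease C1S rose by 1.28, while C3, the central component, fell by 1.27.

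Markers of other cell types moved with age beside the 8 genes, and their part in the results was not tested. Of 17 tested endothelial markers, 7 rose and 1 fell at 14D (12 and 0 after rescaling), and the list summed to 682 to 780 TPM at 1D, 816 to 1626 TPM at 14D and 1225 to 1289 TPM at 28D. Of 13 fibroblast markers, 11 fell and none rose, with sums of 7377 to 9137 TPM at 1D and 2078 to 2297 TPM at 14D. Skeletal muscle identity genes (13 tested) gave 4 higher and 1 lower at 14D, or 10 and 0 after rescaling. Adipocyte markers (6 tested) gave 2 and 0, with sums of 161 to 217 TPM at 1D and 186 to 293 TPM at 14D. Smooth muscle and pericyte markers (10 tested) gave 3 and 3, or 3 and 1 after rescaling. Their sums were 2160 to 2335 TPM at 1D and 1313 to 1501 TPM at 14D. Of 9 nerve and Schwann cell markers, 7 fell (6 after rescaling). Of the 7, SOX10, ERBB3 and CDH19 reached 1 TPM in no later library and passed the filter through 1D alone, which leaves 4. Of 10 thrombocyte and granulocyte markers none was called at 14D by limma (1 had an unadjusted p under 0.05, and 3 rose after rescaling), with sums of 31.7 to 62.5 TPM at 1D and 41.7 to 67.9 TPM at 14D. The red blood cell list, with 1 gene higher and 1 lower, summed to 633 to 898 TPM at 1D and 361 to 776 TPM at 14D. TFRC made up 51.1% of that sum over the 9 libraries. The gene called lower, HBAD, was at 247 to 420 TPM at 1D and at most 1.30 TPM at 14D. Of the 9 genes, 6 had positive log2 changes, so the sum mostly follows a few genes. The 8 genes together summed to 52.5 to 104 TPM at 1D, 451 to 788 TPM at 14D and 514 to 867 TPM at 28D. Over all 3 ages, the limma F test called each of the 8 (adjusted p from 2.24e-05 to 0.00423), as it did 58.4% of tested genes. Of those called, 71.4% had their highest mean at 1D, but none of the 8 did. This is a description, since the 8 were chosen with earlier results known.

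**Figure D5:**
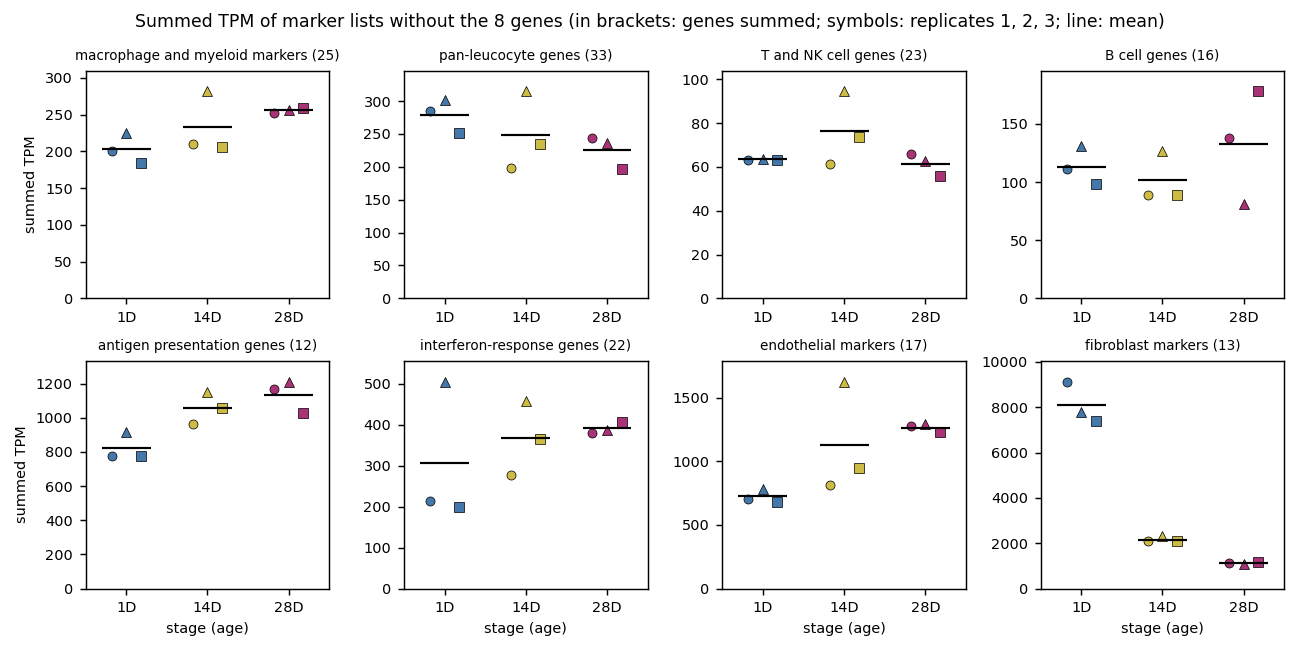
Summed TPM of 8 marker lists, counted without the 8 genes (vertical axes, TPM, from 0), by age, with 1 point per library (circle, triangle and square for replicates 1, 2 and 3) and a line at the mean. The pan-leucocyte sums of 1D (251 to 302 TPM) and 14D (198 to 315 TPM) overlap, and the fibroblast sums drop from at least 7377 TPM at 1D to at most 2297 TPM at 14D.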

How the data were processed

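Breast muscle was profiled by RNA sequencing. The authors deposited TPM in 1 table of mRNA genes and 1 of lncRNAs. The tools named in the submitters' processing notes are Cufflinks 2.1.1 and STAR 2.6.0c. Their roles and the genome build are not given in the sources used here. Each table had 12 value columns, of which 9 matched a sample title of 1D, 14D or 28D. The other 3 columns matched no label and were not used, so the planned 2Y comparisons were not run. Symbols came from the supplied RefSeq gene table (assembly bColLiv1.pat.W.v2).

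Tests used limma 3.58.1 in R 4.3.3 (trended eBayes, two-sided) on log2(TPM + 1) of the 11951 genes that reached 1 TPM in 3 or more libraries, with 1 mean per age, all ages in 1 fit, and Benjamini-Hochberg adjustment over all tested genes within a contrast at 0.05. Since TPM keeps no reads, no count test was run and no depth or counting interval is given. On simulated data with the spread of these libraries, the test recovered 56 and 95 of 100 planted log2 changes of 1 and 2, with 10 false calls among 11951 genes. The simulation planted 200 changes, whereas the data gave 1623 genes called higher and 4688 lower at 14D against 1D. The adjusted cutoff therefore differs, and the simulated counts do not give the recovery or false calls of the data.

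The 8 genes and the gene lists were chosen with earlier results of these data known. Named genes were the 8, up to 4 called genes of each list with the largest change in a contrast, and the receptor and signalling partners whatever their result. The most alike genes were the 3 with the highest Pearson correlation. Alternatives were pseudocounts of 0.1 and 5 TPM, no filter, a filter of 5 TPM and 2 rescalings. Further ones were limma without trend, a replicate block, fits of only the 2 ages compared and leaving out each library.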

Additional observations from a re-analysis of the deposited data

How the results depend on the processing

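All 8 genes were called higher at 14D and at 28D than at 1D, and none was called between 14D and 28D, under all 18 alternatives, except that a filter of 5 TPM dropped CD247 and GZMA and left 6 of 6. Among the other immune-list genes that filter left 25 called higher at 14D and 22 at 28D, fewer genes being tested. Median-ratio rescaling gave 67 higher and 11 lower at 14D and 69 and 13 at 28D, and quantile normalization 71 and 11, then 72 and 13. With 1 library left out at a time, 34 to 51 were higher and 11 to 25 lower at 14D. At 28D against 1D, 32 to 47 were higher and 17 to 33 lower, and 0 to 1 was higher at 28D than at 14D. Some small differences that were not called changed sign, and the cause was not tested. CSF1 was 0.29 (median-ratio) and 0.28 (quantile) at 14D against 1D and 0.30 and 0.34 at 28D, and BTK was 0.069 and 0.18 at 28D. With 1 library left out, CSF1 ranged from -0.22 to 0.20 at 14D and from -0.26 to 0.16 at 28D, BTK from -0.11 to 0.11 at 14D and MARCO from -0.74 to 0.051 at 14D. Between 14D and 28D, RAC2 ranged from -0.48 to 0.13 and BLNK from -0.053 to 0.36.

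Same-numbered libraries of different ages had correlations of deviations from -0.072 to 0.0466, and differently numbered ones from -0.0783 to 0.0919. None was over 0.1, so no pairing by replicate number was seen, but a shared source of same-numbered libraries was not tested. A replicate block left the calls of the 8 genes at 8, 0 and 8 in the 3 contrasts and gave 47 higher and 19 lower of the other immune-list genes at 14D. Precision is limited by 3 libraries per age and unknown depth.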

Other observations

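The lncRNA table also held entries that the supplied RefSeq table annotates as protein-coding immune genes. They lie outside the tests above and were named after their values were seen. IL6R, the interleukin 6 receptor, was at 78.7 to 103 TPM at 1D, 216 to 344 TPM at 14D and 194 to 419 TPM at 28D. RASAL3, a Ras GTPase activator of blood cells, was listed at 0 in all 1D libraries, at 4.32 to 5.92 TPM at 14D and at 0 to 1.47 TPM at 28D. The later libraries of IL6R did not overlap with those of 1D, and those of RASAL3 at 14D did not overlap with either other age. The lncRNA table as a whole also rose. It held 15.0% to 15.9% of the TPM of both tables at 1D, 20.6% to 25.5% at 14D and 20.3% to 23.2% at 28D. The share of its entries that separate these ages was not computed, so the lack of overlap is a description. Other listed genes found there did not rise. CEBPA was at 0.19 to 0.39 TPM at 1D and at 0 to 0.19 TPM later. RFXAP was at 8.92 to 14.4 TPM at 1D and at 5.01 to 10.1 TPM later. TWIST1 was at 6.47 to 10.2 TPM at 1D and at 3.63 to 8.04 TPM later.

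Replicate 2 of 1D differed from the other 1D libraries in single genes of the interferon response. USP18, an interferon-induced protease, was at 54.4 TPM there against 7.65 and 10.2 TPM, and RSAD2 (viperin) at 38.5 against 5.07 and 5.66 TPM. JCHAIN, the joining chain of antibodies made by plasma cells, was at 9.71 TPM there and between 0.065 and 1.87 TPM in the other 8 libraries.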
